A study of Homo sapiens with 12 samples.

Results

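One RNA-seq library of H1 cells, the Day 12 library labelled P-IWP2 replicate 5, is described here; it is 1 of 12 libraries in the series and 1 of the 4 Day 12 libraries from cells split on Day 2. It was chosen by measured values: its expression profile stood apart from the other 3, with high *TBX18*, *TCF21* and *COL6A6* and low *HAND1* and *IRX4*. These 5 genes, and every other difference between replicate 5 and the 3, therefore describe the choice and are given as sizes without a test. H1 is an established human embryonic stem cell line, wild type in all 12 libraries, and all cells were directed through mesendoderm toward the heart. In NP-IWP2 the cells were kept static, without passage, and were given IWP2, an inhibitor of WNT secretion. In P-DF they were split on Day 2 and differentiated spontaneously in DF medium with no IWP2, and P-IWP2 combined the Day 2 split with IWP2. Each treatment had 2 libraries on Day 12 and 2 on Day 16. The numbers 1 to 6 name libraries within a day; the sources used here do not say whether they came from separate cultures, so the spread between them may be technical.

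The heart forms from more than 1 pool of progenitors. Cells of the first heart field, marked by the bHLH factor HAND1 and by TBX5, give rise to the left ventricle. The second heart field, marked by ISL1, adds other parts of the heart, among them the outflow tract and parts of the atria. TBX18-positive progenitors at the venous pole form the sinus node region and part of the epicardium, the outer cell layer of the heart. IRX4 is a homeobox factor of ventricular muscle. TCF21 and WT1 are transcription factors of epicardial cells and the fibroblasts that derive from them, and COL6A6 is a chain of collagen VI.

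The 3 promoters below belong to markers whose level differed most from the other passaged libraries on Day 12. They are the 250 bases before the RefSeq start in GRCh38.p14 for *TBX18* (chr6:84764599-84764848, minus strand), *TCF21* (chr6:133888863-133889112, plus strand) and *HAND1* (chr5:154478228-154478477, minus strand), each printed 5′ to 3′ along the gene. Capitals mark matches to 3 motifs, which do not overlap in these windows. The letters searched were CTTTGAT for TCF/LEF, the factors of WNT signaling, AGATAA for GATA factors, and GGTGTGA for T-box factors, each on both strands. *IRX4* has 3 listed starts, so no single window is shown for it.
TBX18: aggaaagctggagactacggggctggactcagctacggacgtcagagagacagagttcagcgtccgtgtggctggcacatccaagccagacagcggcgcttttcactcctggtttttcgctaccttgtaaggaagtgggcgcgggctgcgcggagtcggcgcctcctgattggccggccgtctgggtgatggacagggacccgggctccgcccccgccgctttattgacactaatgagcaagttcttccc
TCF21: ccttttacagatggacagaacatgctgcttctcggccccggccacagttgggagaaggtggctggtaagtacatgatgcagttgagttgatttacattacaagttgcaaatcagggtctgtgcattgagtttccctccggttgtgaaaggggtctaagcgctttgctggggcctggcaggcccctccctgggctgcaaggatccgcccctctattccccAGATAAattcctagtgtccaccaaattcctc
HAND1: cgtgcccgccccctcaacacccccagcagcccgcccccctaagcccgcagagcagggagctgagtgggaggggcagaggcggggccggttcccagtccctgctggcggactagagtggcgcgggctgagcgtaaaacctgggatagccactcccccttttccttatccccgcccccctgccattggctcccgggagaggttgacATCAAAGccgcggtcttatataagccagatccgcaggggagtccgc
The *HAND1* window holds 1 TCF/LEF match, 46 bases before the start, and 2.26% of 35116 promoters of the same length hold one. The *TCF21* window holds 1 GATA match, 31 bases before the start, a motif present in 9.17% of promoters. No match to the 3 motifs is in the *TBX18* window, and the T-box motif is in 2.76% of promoters. These are letter matches only.

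*TBX18* had 106 FPKM (counts scaled by exon length and library total, as deposited) in replicate 5. In the other passaged Day 12 libraries it had 0.02 and 0.02 (P-DF) and 0.08 (P-IWP2 replicate 6), in the static libraries 22.2 and 38.9 on Day 12 and 28.7 and 44.8 on Day 16, and in the passaged Day 16 libraries 0.05, 0.05, 0.01 and 0.01. Replicate 5 was thus above all 11 other libraries, and the log2 difference from the mean of the 3 other passaged Day 12 libraries was 10.84 on the scale of log2 CPM (counts scaled by library size and TMM, with a prior count of 2). *TCF21* had 21.3 FPKM in replicate 5, against 0.05, 0.02 and 0.02 in the 3, 2.41 and 3.92 in static cells on Day 12, 12.1 and 21.1 in static cells on Day 16, and 0.02, 0.00, 0.00 and 0.00 in passaged cells on Day 16. Only 5 reads were counted over the 3 libraries, which gives a ratio of 636 with a 95% counting interval of 272 to 1960. *COL6A6* had 36.8 FPKM in replicate 5 and 0.16, 0.08 and 0.12 in the 3. Static libraries had 6.27 and 10.3 FPKM of *COL6A6* on Day 12 and 10.8 and 15.03 on Day 16, and no passaged Day 16 library exceeded 0.06. The level of these 3 genes in replicate 5 therefore equalled or exceeded that in static culture, where the other passaged libraries were close to 0.

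*HAND1* had 0.26 FPKM in replicate 5, from 7 counted reads. The 3 others had 104 and 81.3 (P-DF) and 110 (P-IWP2 replicate 6), static cells had 159 and 142 on Day 12 and 136 and 123 on Day 16, and passaged Day 16 cells had 90.5, 91.9, 81.9 and 72.4. The log2 difference from the 3 was -8.35. *IRX4* had 0.04 FPKM from 2 reads, against 61.5, 43.0 and 68.4 in the 3, 20.5 and 20.2 in static cells on Day 12, 33.9 and 37.8 on Day 16, and 51.3, 46.5, 31.5 and 21.4 in passaged cells on Day 16. Its mean in the 3 was 1560 times that in replicate 5 (95% counting interval 432 to 12900). Unlike the 3 high markers, *HAND1* and *IRX4* were high in every one of the 11 other libraries, static cells included. These 2 genes are among the values by which the library was chosen. Whether the library is what its label says was not tested, and its values are those of the library labelled P-IWP2 replicate 5. The Day 16 library that carries the same number, P-IWP2 replicate 5, had *TBX18* at 0.01 and *HAND1* at 81.9 FPKM and resembled its own group at all 5 markers.

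**Figure D1:**
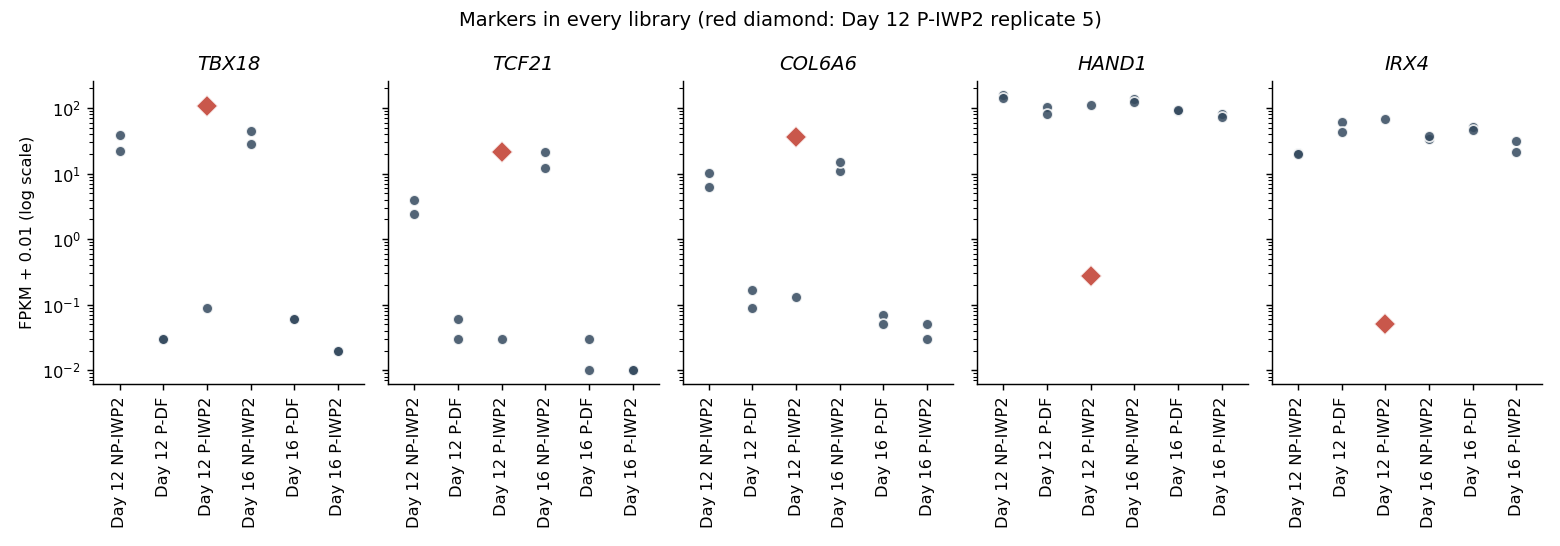
FPKM plus 0.01 on a log axis of the 5 markers in each of the 12 libraries, by day and treatment; every point is 1 library and the red diamond is the Day 12 P-IWP2 replicate 5. The diamond is the highest point for TBX18, TCF21 and COL6A6, and lies at 0.26 and 0.04 FPKM for HAND1 and IRX4, where all other libraries are above 20 FPKM.

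Of 19505 genes that passed the filter on low counts, 1067 were at least 4-fold higher in replicate 5 than the mean of the 3 and above each of them (5.47%), and 461 were at least 4-fold lower and below each (2.36%). Genes meeting these limits are called set apart here. The shares of 5.47% and 2.36% over all genes stand beside every count of list members below, and small counts are not read as results about a list. The median difference over all genes was 0.02; scaled by total counts instead of TMM it was 0.23, a shift to be borne in mind for all values below. Of the higher genes, 877 were protein coding and 289 reached 5 FPKM. The 2 libraries of Day 12 P-IWP2 differed at least 4-fold in 1606 genes (8.23%), while the 2 libraries of the 5 other groups differed in 17 to 153. Replicate 5 had 15634044 counts, within the range of 14885589 to 19176239 over the series. It had the highest TMM factor (1.22, against 1.03 to 1.06 in the 3), the lowest share of mitochondrial counts (6.97%, against 11.9% to 12.4%) and 29571 genes with a count against 27219 to 28434, and the part of these properties in the differences was not tested. As the samples are bulk RNA, fewer cells of a type and less RNA per cell cannot be told apart.

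**Figure D2:**
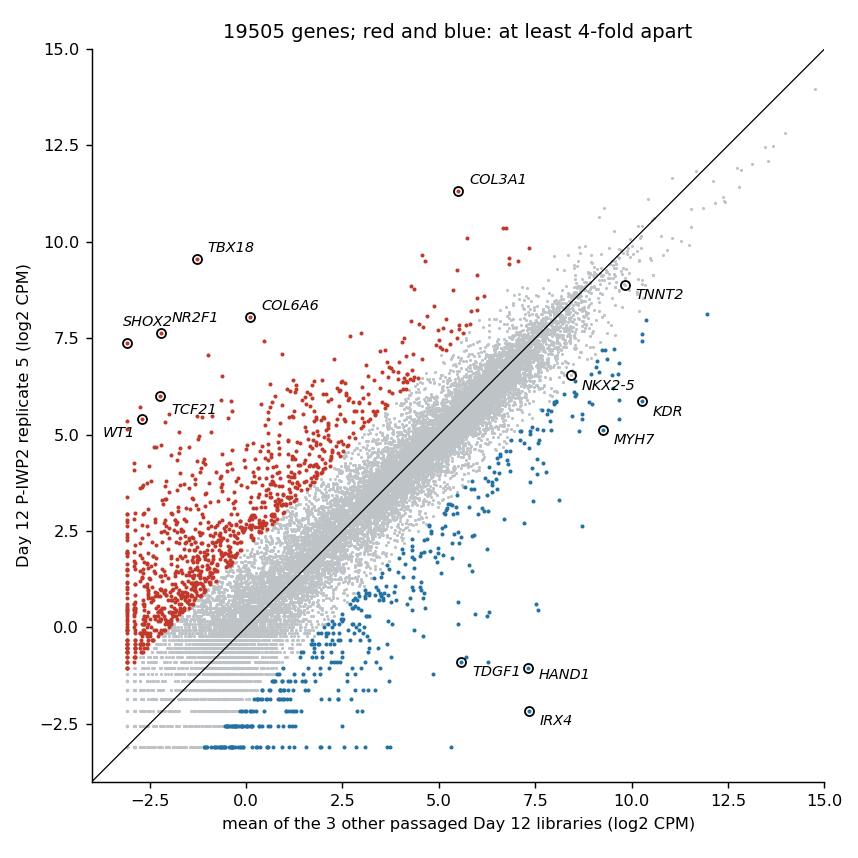
Level of each of 19505 genes in Day 12 P-IWP2 replicate 5 (vertical axis, log2 CPM) against the mean of the other 3 passaged Day 12 libraries (horizontal axis, log2 CPM), with the line of equality. Red points are the 1067 genes set apart as higher and blue points the 461 set apart as lower; Among the genes circled, TBX18, SHOX2 and NR2F1 lie farthest above the line (10.84, 10.47 and 9.85), and IRX4 and HAND1 farthest below (-9.50 and -8.35).

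Genes of the epicardium were higher as a group, but not all of them. Of 18 measured epicardial genes, 10 were set apart as higher and 0 as lower, and the median log2 difference was 2.69. This tally includes *TBX18* and *TCF21*, which are among the values by which the library was chosen. In the same way, the tallies below include *COL6A6* (stromal), *IRX4* (ventricular) and *HAND1* (first heart field). *WT1* had 6.36 FPKM in replicate 5 and 0.00, 0.01 and 0.01 in the 3, and *ALDH1A1*, a retinaldehyde dehydrogenase that makes retinoic acid, had 20.0 against 0.05, 0.02 and 0.09. *SFRP5*, a secreted WNT inhibitor of the venous pole, had 51.5 FPKM in replicate 5 and 0.47 to 1.28 in the 3. *BNC1*, a zinc finger factor of epicardium and other mesothelia, was at 5.91 against 0.15 to 0.48, below the 11.65 and 13.0 of static Day 12 cells. Other mesothelial genes were mixed. *UPK1B*, a uroplakin gene, was set apart as higher at 1.70 FPKM against 0.05 to 0.21. *ALDH1A2*, the main retinoic acid-producing enzyme of the epicardium, was at 0.21 FPKM against 0.05 to 0.10 (log2 difference 1.12) and was not set apart, and *UPK3B*, of the same family as *UPK1B*, was at 0.10, within the 0.07 to 0.12 of the 3. Of the 7 markers taken for epicardial-like cells, 5 were set apart as higher, but *TBX18*, *TCF21* and *COL6A6* are among the values by which the library was chosen, and the tally is no support for the name. Of the other 4, *WT1* and *BNC1* were set apart, and *ALDH1A2* and *UPK3B* were not, so the library is called here by its label and not by a cell type.

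Of 17 measured genes of the atria and the inflow region, where blood enters the heart, 10 were set apart as higher and 1 as lower, with a median of 2.33. *SHOX2*, a homeobox factor of the sinus node, had 40.6 FPKM in replicate 5 and not a single read in the 3, a difference of at least 858-fold when 3 counts are taken as the limit of a count of 0 in each library. Static cells had 0.50 and 1.02 FPKM of *SHOX2* on Day 12 and 2.34 and 4.06 on Day 16. *NR2F1* and *NR2F2* encode the nuclear receptors COUP-TFI and COUP-TFII of atrial muscle. *NR2F1* was at 55.6 FPKM in replicate 5, at 0.03, 0.00 and 0.06 in the 3, and at most 0.97 in any other library. *NR2F2* was at 46.4 FPKM against 3.5, 3.17 and 2.75, and the highest of the 11 other libraries had 4.05. *KCNJ3*, a subunit of the acetylcholine-activated potassium channel of atrial cells, had 8.25 FPKM against 0.14, 0.03 and 0.15. *SLN* (sarcolipin, an atrial inhibitor of the calcium pump) was at 10.2 FPKM with 0 reads in the 3, below the 32.5 and 21.2 of static Day 12 cells. Of the 17 genes, 12 lay above the mean of the 3 and 5 below. *TBX3* was at 4.56 FPKM against 11.9 to 13.0 (log2 difference -1.67). *BMP2* was at 34.1 FPKM against 93.4 to 119.5 (-1.84). Both lay below the 3 without being set apart. Genes of the contractile apparatus in this list went both ways. *MYL4*, the atrial essential light chain and the gene set apart as lower, had 146 FPKM in replicate 5 and 733 to 830 in the 3, and *MYL7* had 1113 against 1957 to 2283. *MYBPHL*, a myosin-binding protein of atrial muscle, was set apart as higher at 3.16 FPKM against 0.34 to 0.57.

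Among second heart field genes, 14 were measured, 4 were set apart as higher and 0 as lower, and the median was 0.90. *ISL1* had 35.9 FPKM in replicate 5 and 5.94, 6.85 and 6.70 in the 3, a log2 difference of 2.24. The forkhead gene *FOXC1* was at 25.8 against 0.71, 1.18 and 0.74, and the LIM homeobox gene *LHX2* at 16.1 against 0.35, 1.2 and 0.44. These 3 were also above both static Day 12 libraries, which had 22.0 and 23.9 (*ISL1*), 6.02 and 7.73 (*FOXC1*) and 5.05 and 7.44 (*LHX2*). *FOXF1*, a factor of splanchnic mesoderm, was at 0.42 FPKM from 23 reads. The FGF ligands of this list were not set apart, with *FGF10* at 24.7 FPKM against 14.9 to 18.1 (log2 difference 0.40) and *FGF8* at 0.89 against 2.00 to 2.18 (-1.34).

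The first heart field list was mixed. Of its 6 genes, *SFRP5* was set apart as higher and *HAND1* as lower, and the median was 0.49. *TBX5* was at 64.2 FPKM in replicate 5, above the 26.7, 17.0 and 31.5 of the 3 and the 29.3 and 32.3 of static Day 12 cells. *HCN4*, the pacemaker channel, was at 117 FPKM against 51.2 to 65.0. *GATA4* was at 113 FPKM against 84.4 to 88.0, a log2 difference of 0.18. *NKX2-5*, a homeobox factor of cardiac muscle, was at 55.3 FPKM against 170, 158 and 199, the lowest of all 12 libraries. *HAND2*, the paralog of *HAND1*, was at 88.6 FPKM against 34.3, 26.8 and 38.6. Over the 13 cardiac transcription factors measured, 0 were set apart as higher and 1 (*SMYD1*, a muscle histone methyltransferase, 40.1 FPKM against 151 to 205) as lower, and the median was -0.02 (0.20 with total counts).

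Ventricular genes were lower. Of 16 measured, 0 were set apart as higher and 10 as lower, and the median was -2.93. Besides *IRX4*, the other Iroquois factors were low: *IRX3* had 1.66 FPKM against 28.9, 18.5 and 36.4, *IRX2* had 1.94 against 15.7, 8.28 and 20.7, *IRX1* had 0.25 against 3.33, 0.99 and 4.04, and *IRX5* had 0.65 against 4.70, 2.18 and 6.00. Levels of *IRX3*, *IRX2* and *IRX5* this low were also found in other libraries. Day 16 P-IWP2 libraries had 1.9 and 1.39 FPKM of *IRX3* and 0.41 and 0.37 of *IRX5*. *IRX2* in replicate 5 lay between the 1.83 and 2.35 of static Day 12 cells. *IRX1* was below all 11 other libraries, of which the lowest had 0.38 FPKM. *PRDM16*, a regulator of compact ventricular muscle, had 0.12 FPKM against 3.42 to 5.97. *MYH7*, the slow myosin heavy chain, was at 7.06 FPKM in replicate 5, at 121, 88.9 and 108 in the 3 and at 54.4 and 37.9 in static Day 12 cells. *MYL2*, the ventricular regulatory light chain, was at 0.14 FPKM from 3 reads, and had only 1.37 to 4.27 FPKM in the 3 at this day. *HEY2* (7.73 FPKM against 5.80 to 10.01) and *TBX20* (86.0 against 95.8 to 132) were not set apart. Gap junction gene *GJA1* lay the other way, at 10.2 FPKM against 2.48 to 2.83.

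Cardiac muscle genes were present at a reduced level. *TNNT2* (cardiac troponin T) had 78.8 FPKM in replicate 5, and 126, 145 and 119 in the 3, a log2 difference of -0.94. *MYH6*, the fast myosin heavy chain, had 737 FPKM against 1650, 1748 and 1709. Of 25 sarcomere genes, 24 lay below the mean of the 3, 10 were set apart as lower and 0 as higher, and the median was -1.46. Among 17 genes of calcium handling and excitation, 4 were set apart as lower, and the median was -1.41. *PLN* (phospholamban) had 22.5 FPKM against 170 to 179, and the potassium channel gene *KCNQ5* had 0.15 against 15.7, 19.7 and 15.7. *RYR2* (47.1 FPKM against 40.9 to 41.4, log2 difference -0.03 after TMM) and *ATP2A2* (120 against 87.5 to 100.3, 0.14) were not set apart, and *CACNA1G*, a T-type calcium channel of pacemaker cells, was set apart as higher at 5.16 FPKM against 0.69, 0.21 and 0.95. None of the 5 cardiomyocyte markers (*TNNT2*, *ACTN2*, *MYH6*, *MYL7*, *TTN*) was set apart. Respiration genes had a median of -0.91, with 23 of 24 below the mean of the 3 but only 2 set apart as lower. Glycolysis genes had a median of -0.60, with 1 of 20 set apart as lower. The median over all genes was 0.02, and the share of all genes below the mean of the 3 is not given.

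**Figure D3:**
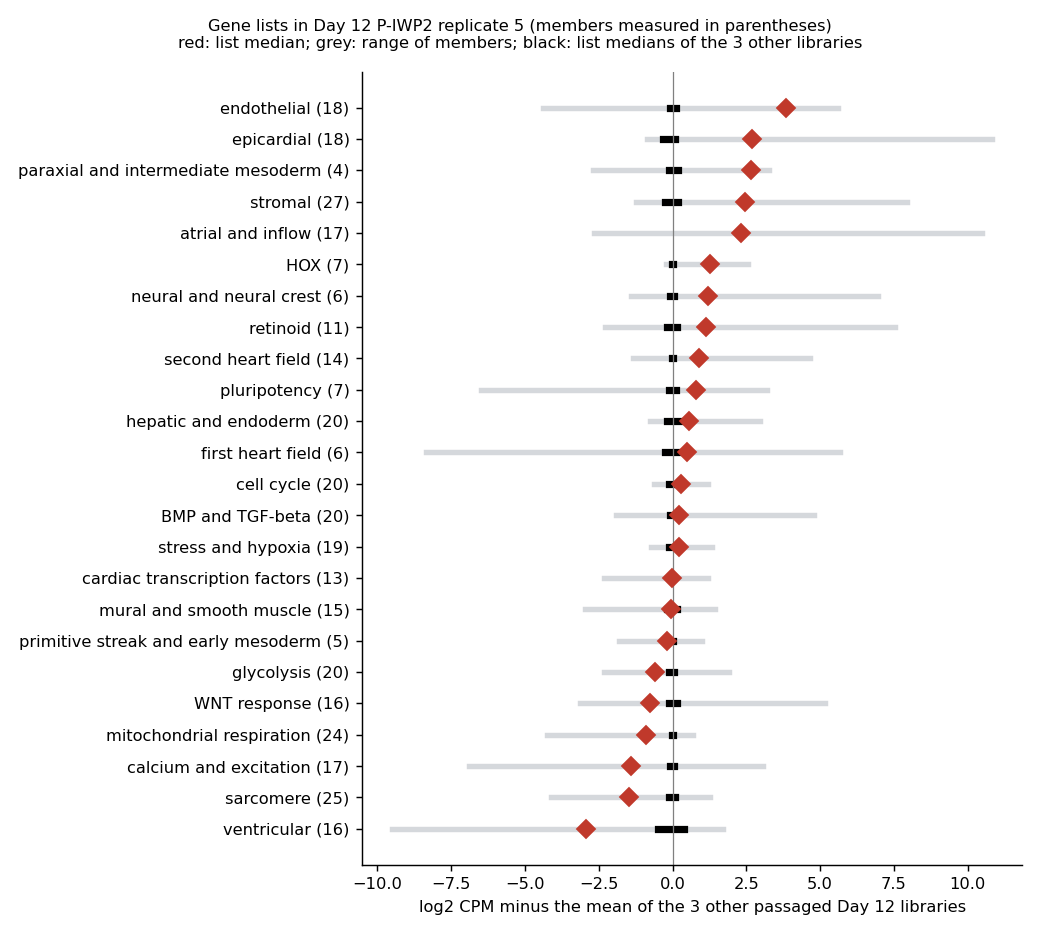
Median log2 CPM difference of each gene list between Day 12 P-IWP2 replicate 5 and the mean of the 3 other passaged Day 12 libraries (red diamonds), with the range of the members (grey bars) and the range of the same median in the 3 libraries themselves (black bars); the number of measured genes is in parentheses. The ventricular list is lowest at -2.93, and the endothelial, epicardial, stromal and atrial and inflow lists lie between 2.33 and 3.83.

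Stromal genes were higher: of 27 measured, 15 were set apart as higher and 0 as lower, with a median of 2.45. *COL3A1*, a fibrillar collagen, had 457 FPKM in replicate 5 and 8.17, 3.99 and 10.4 in the 3, and 401 and 383 in static Day 12 cells. *FBN1* (fibrillin) had 13.2 FPKM against 0.41 to 0.50, and the collagen receptor *DDR2* had 7.52 against 0.24 to 0.31. *PDGFRA* was at 37.7 FPKM against 5.52 to 6.6 and above the 19.5 and 22.0 of static cells, while *PDGFRB* was at 4.63 against 0.15 to 0.26 and below the 10.5 and 12.2 of static cells. Some stromal genes were far below their level in static culture. *LUM* (lumican) was at 0.55 FPKM, against 0.32 to 0.55 in the 3 and 97.6 and 73.2 in static Day 12 cells. *DCN* (decorin) was set apart as higher at 0.26 FPKM against 0.02, 0.00 and 0.01 in the 3, and static Day 12 cells had 4.10 and 2.65. Of 15 mural and smooth muscle gene entries, 0 were set apart as higher and 1 (an entry of *RGS5*, 8.27 FPKM against 42.4 to 64.2) as lower.

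Endothelial genes had the highest median of all lists, 3.83, mostly at low levels. Among 18 measured, 15 were set apart as higher and 1 as lower. *PECAM1* had 1.18 FPKM in replicate 5 and 0.01, 0.01 and 0.00 in the 3, *CDH5* (VE-cadherin) had 2.60 against 0.07, 0.02 and 0.03, and *PLVAP* had 10.3 against 0.26, 0.16 and 0.08. Static Day 12 cells had 1.84 and 2.5 FPKM of *PECAM1* and 4.73 and 6.05 of *CDH5*. The gene set apart as lower was *KDR*, the VEGF receptor of endothelial cells and of cardiac progenitors. It had 11.2 FPKM in replicate 5 against 224, 161 and 233 in the 3 and 177 and 156 in static Day 12 cells. On Day 16 *KDR* was at 9.89 to 14.97 FPKM in passaged libraries, which is near the level in replicate 5, and at 39.3 and 39.2 in static ones. Because of *KDR*, the summed level of the list was lower in replicate 5 (50 FPKM) than in the 3 (165 to 237). The part of endothelial and stromal RNA in the epicardial difference was not tested.

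Hepatic and endodermal genes, abundant in static culture, were mostly near the level of the 3. Their summed level was 28.7 FPKM in replicate 5, 10.6 to 14.2 in the 3, and 733 and 519 in static Day 12 cells. *AFP* was at 0.78 FPKM against 0.06, 0.00 and 0.15 in the 3 and 299 and 211 in static cells, *TTR* at 0.26 against 50.2 and 35.4 in static cells, and *AHSG* at 0.00 against 42.1 and 34.2. Of the 20 measured, 3 were set apart as higher, among them *VTN* (vitronectin) at 17.0 FPKM against 1.42 to 2.38. *VTN* alone thus made up most of the summed level of the list in replicate 5. In the other lists, 3 of 6 measured neural genes, 3 of 4 paraxial and intermediate mesoderm genes, 1 of 7 HOX genes and 1 of 7 pluripotency genes (*DPPA4*) were set apart as higher, while 1 paraxial and intermediate mesoderm gene (*UNCX*, no read in replicate 5 and 0.16 to 0.45 FPKM in the 3) and 1 pluripotency gene (*TDGF1*) were set apart as lower. The higher ones were below 2 FPKM except *DPPA4*, at 3.88 FPKM against 0.25 to 0.45, and *STMN2*, a neuronal tubulin-binding protein, at 9.96 against at most 0.03. None of the 20 cell cycle genes, the 19 stress genes and the 5 measured genes of primitive streak and early mesoderm was set apart, with medians of 0.29, 0.22 and -0.19. The immediate early genes *FOS* and *EGR1* were at 312 and 201 FPKM, against 99.3 to 112 and 65.9 to 81.5 in the 3.

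Signaling genes were mixed. *LGR5*, a WNT pathway receptor, was at 1.62 FPKM against 0.01 to 0.02, and the WNT inhibitor *DKK1* at 23.8 against 0.71 to 4.25. The ligands *WNT2* (2.36 FPKM against 10.3 to 23.0), *WNT5B* (2.31 against 16.8 to 18.8) and *WNT11* (10.4 against 43.5 to 52.3) were lower, as was *NOTUM*, and the median of the 16 WNT genes measured was -0.75. *AXIN2*, a direct target of WNT signaling, was at 9.18 FPKM and within the 8.25 to 17.7 of the 3. Of 20 BMP and TGF-beta genes, 2 were set apart as higher, where 5.47% of all genes were. They were *BMP4*, at 26.3 FPKM against 1.15 to 1.86, and the BMP antagonist *GREM1*, at 0.84 against 0.00 to 0.03. In the retinoid list, *CYP26B1*, which degrades retinoic acid, was at 5.67 FPKM against 0.31 to 0.60 and at most 0.60 in any of the 11 other libraries, and *DHRS3*, a retinaldehyde reductase, was at 0.60 against 2.39 to 2.84.

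**Figure D4:**
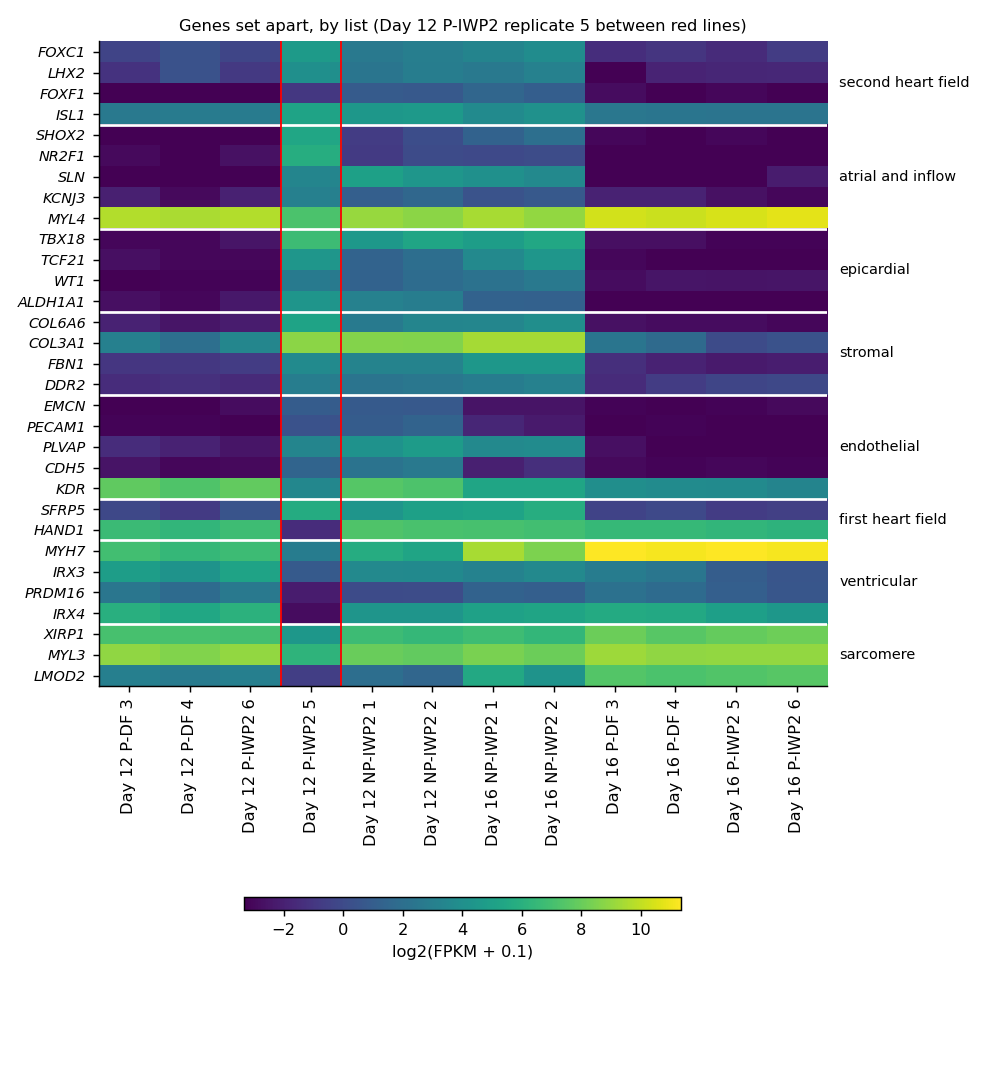
Level of genes set apart, as log2(FPKM + 0.1), in all 12 libraries, with rows grouped by list and Day 12 P-IWP2 replicate 5 between red lines. The epicardial and stromal genes shown are high in replicate 5 and in the NP-IWP2 libraries, EMCN, PECAM1 and CDH5 are higher in replicate 5 and the Day 12 NP-IWP2 libraries than on Day 16, SHOX2 and NR2F1 are highest in replicate 5, and HAND1, IRX4, PRDM16 and KDR are far lower there than in the NP-IWP2 libraries of the same day.

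The 10 protein-coding genes with the largest positive differences among those reaching 5 FPKM were *TBX18*, *SHOX2*, *NR2F1*, *CCN4*, *TCF21*, *SPRR2F*, *WT1*, *FSTL5*, *COL6A6* and *ALDH1A1*. *CCN4*, a matricellular protein and WNT target, was at 12.4 FPKM with 2 reads in the 3 together. *SPRR2F*, of the small proline-rich proteins of epithelia, had 63.7 FPKM in replicate 5, no read in the 3 and at most 1.45 FPKM elsewhere. *FSTL5*, a secreted follistatin-like protein, had 30.6 FPKM against 0.07 to 0.08 in the 3 and at most 6.20 elsewhere. The 10 largest negative differences, among genes with 5 FPKM in each of the 3, were those of *IRX4*, *HAND1*, *KLHL14*, *KCNQ5*, *ODAM*, *TDGF1*, *CA8*, *MASP1*, *PPP1R3A* and *NPNT*. *TDGF1* (Cripto, a co-receptor for NODAL) was at 0.21 FPKM in replicate 5, 17.3, 28.1 and 16.7 in the 3, and 16.0 and 15.8 in static Day 12 cells. *NPNT* (nephronectin, an extracellular matrix ligand of integrins) was at 0.24 FPKM against 15.9, 8.48 and 18.0, and *PPP1R3A*, a glycogen-binding subunit of protein phosphatase 1 in striated muscle, was at 0.29 against 17.5, 15.8 and 18.2.

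Replicate 5 was closer to static cells than to its own group over all genes, and yet was not the same. Its Pearson correlation across genes of log2 CPM was 0.944 and 0.95 with the static Day 12 libraries, 0.917 with P-IWP2 replicate 6, 0.916 and 0.912 with P-DF on Day 12, 0.926 and 0.938 with static Day 16 libraries and 0.888 to 0.893 with passaged Day 16 libraries. Genes are not independent replicates, and these values are a description. For comparison, the 2 libraries of the other groups correlated at 0.985 to 0.991. Of the 1067 higher genes, 782 were above both static Day 12 libraries in replicate 5 and 221 below both, and 179 were at least 4-fold above the static mean. Among the 461 lower genes, 441 were below both static Day 12 libraries, and 206 were at least 4-fold below their mean. Both sets were selected on their value in replicate 5, so these counts are in part built in and are a description. Over all 19505 genes, replicate 5 was at least 4-fold above the static Day 12 libraries 1 and 2 in 305 and 260 genes. It was at least 4-fold below them in 601 and 547 genes. Replicate 5 lay at least 4-fold above the highest of all 11 other libraries in 62 genes (0.318%) and at least 4-fold below the lowest in 88 (0.451%), counts added after its values were seen.

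**Figure D5:**
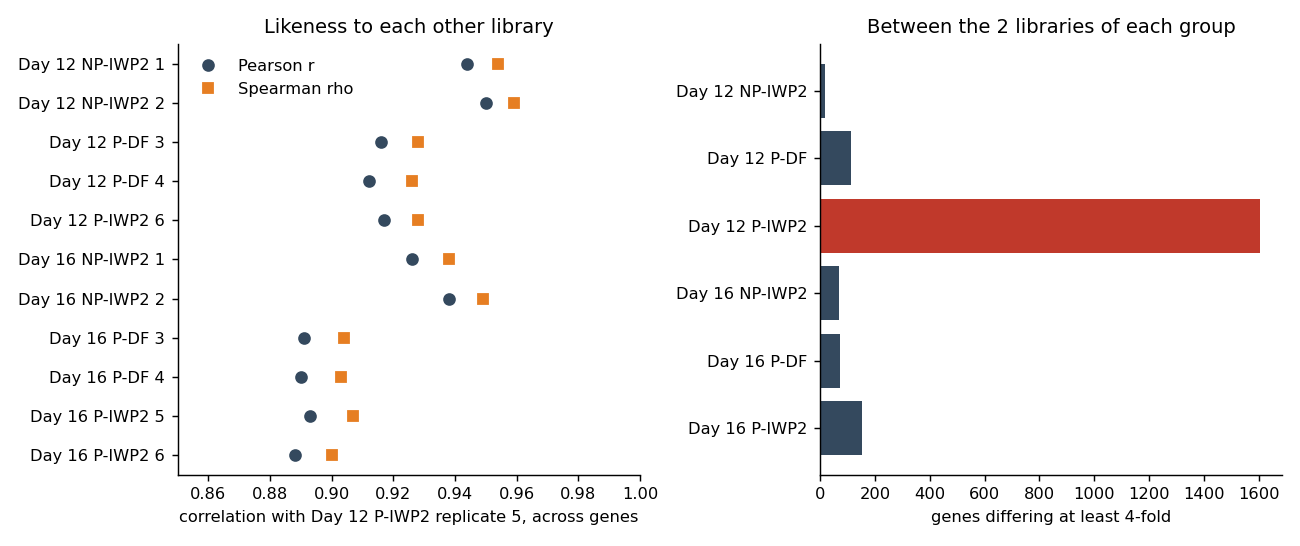
Left: Pearson and Spearman correlation across 19505 genes of Day 12 P-IWP2 replicate 5 with each of the 11 other libraries, on an axis from 0.85 to 1. Right: number of genes differing at least 4-fold between the 2 libraries of each group. The highest correlations are with the Day 12 NP-IWP2 libraries, and the Day 12 P-IWP2 pair differs in 1606 genes against 17 to 153 in the other pairs.

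Of the 62 genes, 29 were protein coding and reached 5 FPKM. They include the transcription factor genes *NR2F1*, *NR2F2*, *SHOX2*, *ALX1* (12.7 FPKM, at most 0.46 elsewhere), *DACH1* (9.18, at most 1.26) and *DACH2* (7.50, at most 0.25), the angiopoietin ligand *ANGPT1* (11.01, at most 0.86), and *SEMA3D*, a semaphorin of epicardial cells (57.1, at most 10.9). They also include *PRDX1*, a peroxiredoxin that removes peroxides, with 949 FPKM in replicate 5 and 56.0 to 169 in the 11 others. Of the 88 genes, 19 were protein coding with 5 FPKM in all 11 other libraries. *HAND1* and *IRX4* were the most distant of these, at -8.07 and -7.91 on the log2 scale from the lowest other library, followed by *KCNQ5*, *TDGF1*, *NPNT*, *PPP1R3A* and *MASP1*. Genes of muscle in this group were *MYH7*, *FHL2*, *POPDC2*, *XIRP1* and *RRAD*, and *VCAM1*, an adhesion molecule of epicardium and myocardium, was at 8.50 FPKM against 38.4 to 148.

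The difference was spread over the genome. Chromosome medians of the log2 difference lay between -0.03 and 0.13. The share of genes set apart as higher ranged from 2.90% to 9.19% by chromosome and was highest on chromosome 4, and the share set apart as lower ranged from 0.539% to 4.73% and was highest on chromosome 5. *HAND1* (chr5:154474972-154478227) and *IRX4* (chr5:1877413-1887236) are both on chromosome 5, at opposite ends.

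Levels of the markers over the 11 other libraries were closest to those of a few genes. The gene with the highest Pearson correlation was *ASIC1* for *TBX18* (r = 0.998), *DACT2* for *TCF21* (0.994), *NOTCH1* for *COL6A6* (0.994), *KRT19* for *HAND1* (0.967) and *PRDM16* for *IRX4* (0.990), each over 11 libraries that share treatments and days. Replicate 5 kept some of these pairs together, with *ASIC1* at 14.9 FPKM against 0.85 to 1.11 in the 3 and *PRDM16* low with *IRX4*. It separated others: *FGB*, which followed *TBX18* at 0.992, was at 0.16 FPKM in replicate 5 and at 29.4 in the highest of the 11, and *KRT19* was at 15.8 FPKM, within the 12.9 to 24.3 of the 3.

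The markers were also compared between passaged and static cells on Day 16. The fit used the 8 libraries that had no part in choosing replicate 5, with edgeR's quasi-likelihood test and Benjamini-Hochberg adjustment over 18866 genes. The difference is the mean of Day 16 P-DF and P-IWP2 minus Day 16 NP-IWP2. Static Day 12 libraries added only to the fit. As P-DF had no IWP2, passage and IWP2 are mixed in that part of the difference. Of the 18866 genes, 3409 were higher in passaged cells (18.1%) and 4431 lower (23.5%). Under total-count scaling the split was 1819 and 6985, and without static replicate 2 it was 2158 and 3246. In passaged cells *TBX18* fell by 10.67 on the log2 scale (SE 0.33, edgeR adjusted p = 9.2e-10), and was lower in 4 of 4 passaged libraries than in either static one. *COL6A6* fell by 8.05 (SE 0.26, edgeR adjusted p = 1.3e-09). *TCF21* fell by 11.73 (SE 0.48, edgeR adjusted p = 2.8e-08), with 3 of 4 passaged libraries at 0.00 FPKM, so that its size depends on the prior count. *HAND1* fell by 0.39 (SE 0.10, edgeR adjusted p = 0.0066), from 136 and 123 FPKM to between 72.4 and 91.9, a call lost without static replicate 1 (adjusted p = 0.13). *IRX4* was at 33.9 and 37.8 FPKM in static and 21.4 to 51.3 in passaged cells (log2 difference 0.24, SE 0.11, edgeR adjusted p = 0.11), and the groups overlapped. The near absence of *HAND1* and *IRX4* transcripts in replicate 5 thus had no counterpart in the 6 Day 16 libraries. *TBX18*, *TCF21* and *COL6A6* were near 0 in the passaged Day 16 libraries and passed the filter through the static libraries alone. All the markers were also chosen with earlier results of these data known. Their differences and edgeR p-values are therefore a description and not independent support.

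Of the 1067 genes higher in replicate 5 on Day 12, 1007 were tested on Day 16, of which 815 were lower in passaged than in static cells (80.9%) and 18 higher, and 60 did not pass the filter. They make up 18.4% of all genes lower in passaged cells. Of the 461 lower genes, 428 were tested, 213 of them higher in passaged cells (49.8%) and 65 lower. Many genes that are near 0 in passaged cells passed the filter through the static libraries alone, so these counts are a description. Of the 62 genes at least 4-fold above all 11 libraries, 53 were tested on Day 16. Of these, 32 were lower in passaged cells (60.4%, against 23.5% of all genes tested) and 0 higher. All 88 genes at least 4-fold below all 11 were tested, and 55 were higher in passaged cells (62.5%, against 18.1%) and 8 lower. These counts are a description as well. *SHOX2* and *NR2F1* were among the 32, at static means of 3.20 and 0.915 FPKM, far below the level in replicate 5.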

How the data were processed

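RNA-seq counts per gene were measured in 12 libraries. Per the submitters' processing notes, the authors trimmed reads with cutadapt 1.9.1, aligned them to hg38 with HISAT2 2.0.1 and counted them with HTSeq 0.6.1; DESeq2 is also named. The labels and methods name a SMRTbell kit, made for long reads, whereas these tools are usual for short reads. Which reads gave the counts was not resolved. In long reads counts need not grow with gene length, so FPKM compares a gene between libraries here and not genes with each other. Sums of FPKM over a list weight its genes by this scaling and are a description. Strand and counting mode are not given in the sources used here. The authors deposited raw read counts for 61806 Ensembl genes and FPKM made from them; each FPKM equals the count divided by exon length and by the library total within 0.005. Gene IDs matched GENCODE v44 for 61757 genes, with overlapping positions for 99.94%, so coordinates are GRCh38. Promoters are from RefSeq.

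The libraries were grouped by their labels. Counts were scaled by TMM in edgeR 4.0.16 (R 4.3.3) over all 12 libraries, and genes were kept by filterByExpr with 6 groups. Replicate 5 of Day 12 P-IWP2 was compared with the mean log2 CPM (prior count 2) of the other 3 passaged Day 12 libraries; being 1 library, it was not tested. The depth was 14885589 to 19176239 counts, and the limit set by 3 counts lies at 0.156 to 0.202 CPM; limits and intervals (exact, 95%) cover counting error only. Day 16 was tested with edgeR's quasi-likelihood test on 8 libraries in 4 groups (the mean of P-DF and P-IWP2 against NP-IWP2), with a Benjamini-Hochberg threshold of 0.05. In simulated counts, 156 of 200 changed genes among 18866 were recovered (65 of 100 with 2-fold and 91 of 100 with 4-fold changes), with 19 false calls.

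The library, the markers and the 24 gene lists were chosen with earlier results of these data known. Named genes are the 5 markers, up to 4 members per list and direction with the largest differences, the 10 largest differences each way among protein-coding genes of at least 5 FPKM, and *TNNT2*, *NKX2-5*, *MYH6*, *MYH7*, *MYL2*, *MYL7* and *WT1*. Other genes named are further list members or genes beyond all 11 libraries, and were chosen after their values were seen. For each marker, the gene with the highest Pearson correlation over the 11 other libraries was taken. Alternatives were DESeq2 1.42.0, other scaling, prior count, unit or filter, and leaving out libraries. The alternatives for the counts beyond all 11 libraries were added after seeing the data.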

Additional observations from a re-analysis of the deposited data

How the results depend on the processing

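The direction of all 74 named genes set apart was kept under every alternative tried for the Day 12 comparison, and 74 remained set apart with DESeq2 size factors, a prior count of 0.5 or no filter, 73 with total counts 73 to 74 without 1 comparison library, and 71 against P-IWP2 replicate 6 alone. On the scale of log2(FPKM + 1), where low genes move little, 52 of 74 remained, and the counts over all genes were 267 higher and 109 lower in place of 1067 and 461; 5 of 24 lists had a median of at least 1 in size in place of 11. Without 1 of the 3 comparison libraries in turn, the counts were 1078 to 1094 higher and 451 to 474 lower, and 10 to 11 lists reached that size. Medians of lists with few measured genes depended on the filter: without it, the HOX and the paraxial and intermediate mesoderm medians were 0.00. With no filter, 120 genes lay at least 4-fold above all 11 other libraries in place of 62, and on log2(FPKM + 1) 24 did, and 12 lay below in place of 88. On Day 16, 7840 genes were called; leaving out 1 Day 16 library at a time gave 5404 to 8942, and DESeq2 gave 6853. The Day 16 call of *TNNT2* (log2 difference 0.43, edgeR adjusted p = 0.02) was lost with total counts and without static replicate 1 or P-DF replicate 3, and *IRX4* was called without P-IWP2 replicate 6 (log2 difference 0.34, edgeR adjusted p = 0.0026). No paired analysis was possible because the groups compared on Day 16 share no replicate number and replicate 5 of Day 12 was compared without a test. The pattern is that of a single library, and whether the library is what its label says was not tested. Nothing here says how often the pattern would recur, and its cause was not tested.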
